A study of Mus with 6 samples.

Results

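The 10 genes described here encode the supply side and the early response side of transforming growth factor beta (TGFβ) signaling in mouse lens epithelial cells (LECs), the single sheet of cells under the front of the lens capsule. They were chosen by name, as 3 ligands (Tgfb1, Tgfb2 and Tgfb3), 2 receptors (Tgfbr1 and Tgfbr2), 4 genes whose products hold the pathway back (Smad7, Skil, Pmepa1 and Smurf1) and 1 gene for an induced matrix protein (Tgfbi), out of 55421 genes counted by RNAseq. Wild type C57BL/6 mice, 2 months old by the sample labels and somewhat older by the study's methods, had the lens fiber cell mass removed from the eye as a model of cataract surgery, and the capsule with its attached LECs was taken either at once (0 h post cataract surgery, PCS) or 6 h later (6 h PCS). There were 3 libraries per time, every one made from 5 pooled capsules. By the labels the eyes of a mouse were operated 6 h apart and harvested together, so pools of both times can share mice, in a way the labels leave unstated. Both groups were operated eyes, and no eye without surgery was among the samples.

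TGFβ ligands are secreted as latent complexes, tethered to the matrix by latent TGFβ binding proteins, and become active when integrins, thrombospondin or proteases free them. The active ligand binds the type II receptor (Tgfbr2), which recruits and phosphorylates the type I receptor (Tgfbr1), and this kinase in turn phosphorylates SMAD proteins that enter the nucleus and regulate genes. Among the first genes induced in many cell types are brakes on the pathway itself, such as Smad7, Skil and Pmepa1. In the lens, TGFβ is known as a driver of the conversion of LECs into myofibroblasts after cataract surgery.

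All 10 genes passed the filter on low counts. Of the 10, 4 rose at 6 h PCS, namely Tgfb2, Smad7, Pmepa1 and Tgfbi, at a false discovery rate (FDR) of at most 0.05 over all 16810 genes tested by the quasi-likelihood (QL) F-test of edgeR. By this rule 8.33% of all genes tested changed, 6.31% upwards and 2.02% downwards. Standard errors (SE) are those of log2 fold changes, and adjusted p-values are Benjamini-Hochberg values over all genes tested. None of the 10 fell, and 0 fell at an unadjusted p of at most 0.05, with DESeq2 or with the exact test of edgeR. Of the 4 that rose, 3 (Tgfb2, Pmepa1 and Tgfbi) also passed the fold limit of the study, a fold change above 2, and are called DEGs here, where 5.35% of all genes tested were DEGs, 4.53% upregulated and 0.821% downregulated. The 3 libraries at 6 h PCS all lay above the 3 at 0 h PCS in 6 of the 10 genes and below them in 0, whereas the times were separated in 30.6% of all genes tested, 15.3% in each direction. By side, 1 of the 5 ligand and receptor genes and 3 of the 5 brake and matrix genes rose, and the median log2 fold changes were 0.37 and 0.84, beside a median of −0.003 over all genes tested. Symbols were at hand for 6363 of the genes tested, a set that leans towards genes that changed. Of these, 16.2% rose and 5.03% fell, and their median log2 fold change was 0.19. In 1700 of them all 6 h libraries lay above the 0 h libraries, and in 1045 below.

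Of the ligand genes, Tgfb2 (ENSMUSG00000039239, chromosome 1 of GRCm38, 186622787 to 186709697) was at 469.5, 432 and 520.5 CPM (counts scaled to a common library total by the TMM method) in the 3 libraries at 0 h PCS and at 937, 898 and 1187 CPM at 6 h PCS. The lowest library at 6 h PCS was well above the highest at 0 h PCS. Tgfb2 rose by a log2 fold change of 1.09 (2.12-fold, SE 0.157, edgeR QL adjusted p = 0.0029). It rose in all 6 fits that each left out 1 library, while it passed the fold limit in 5 of them, with a log2 fold change of 0.95 without 6 h replicate 3. In pooled tissue, a change in the share of a cell type and a change in RNA per cell cannot be told apart.

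Tgfb1 (ENSMUSG00000002603, chromosome 7, 25687002 to 25705077), the ligand best known from platelets and leukocytes, was at 38.5, 27.4 and 36.5 CPM at 0 h PCS and at 51.4, 32.1 and 48.9 CPM at 6 h PCS. Its groups overlapped through 6 h replicate 2, and its log2 fold change of 0.37 (SE 0.210, edgeR QL adjusted p = 0.329) did not pass. Tgfb3 (ENSMUSG00000021253, chromosome 12, 86056743 to 86079041) was at 15.4, 20.4 and 9.91 CPM at 0 h PCS and at 10.2, 9.83 and 13.2 CPM at 6 h PCS, with a log2 fold change of −0.46 (SE 0.277, edgeR QL adjusted p = 0.359). Its groups overlapped, with 0 h replicate 3 among the lowest libraries, and it did not pass, so that Tgfb2 was the 1 ligand gene of 3 that rose.

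**Figure D1:**
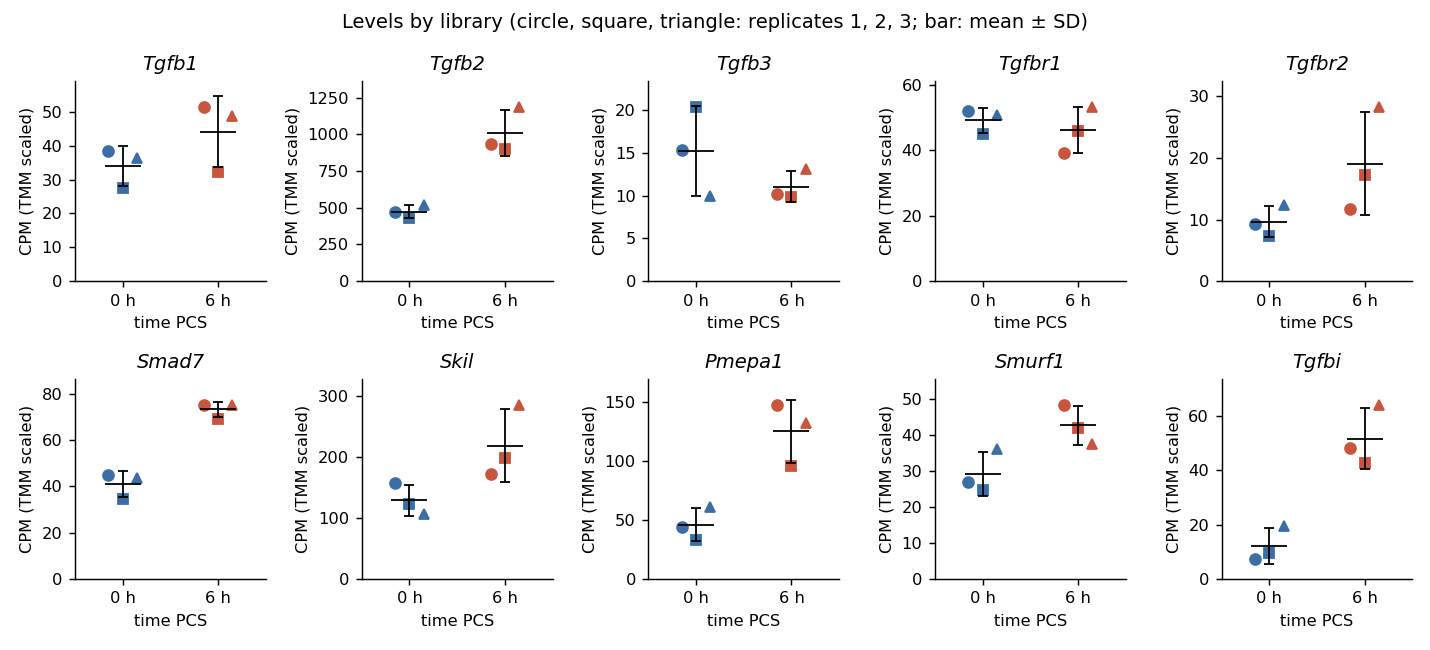
TMM-scaled CPM (y axes, each from 0) of the 10 genes in the 3 libraries at 0 h PCS (blue) and the 3 at 6 h PCS (red), with 1 symbol shape per replicate number and bars for the mean ± SD. The groups part without overlap in Tgfb2, Smad7, Skil, Pmepa1, Smurf1 and Tgfbi, and overlap in Tgfb1, Tgfb3, Tgfbr1 and Tgfbr2.

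The type I receptor gene Tgfbr1 (ENSMUSG00000007613, chromosome 4, 47353222 to 47414926) was at 51.9, 44.8 and 50.6 CPM at 0 h PCS and at 39.2, 45.9 and 53.1 CPM at 6 h PCS. Its groups overlapped on both sides, and the log2 fold change was −0.09 (SE 0.154, edgeR QL adjusted p = 0.768), which became 0.011 without 6 h replicate 1. The type II receptor gene Tgfbr2 (ENSMUSG00000032440, chromosome 9, 116087695 to 116175363) was at 9.28, 7.39 and 12.4 CPM at 0 h PCS and at 11.7, 17.3 and 28.3 CPM at 6 h PCS. Of the 6 h libraries, only replicate 1 lay within the range of the 0 h libraries.

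The log2 fold change of Tgfbr2 was 0.98 (SE 0.327, edgeR QL adjusted p = 0.102), so it was not called. Without 6 h replicate 1 it was 1.23 with an adjusted p of 0.0348 from the same edgeR test, which would make Tgfbr2 a DEG, and DESeq2 on all libraries gave an adjusted p of 0.0425. Tgfbr2 was also called by edgeR when no low-count filter was used (adjusted p = 0.00246). With all libraries, the filter and time as the only term of the model, neither receptor gene was called by the QL test. At an unadjusted p of at most 0.05 in that fit only Tgfbr2 passed. Tgfbr2 was called when the replicate number was added to the model as a block (edgeR QL adjusted p = 0.0398). A set of pigment cell genes (Tyr, Tyrp1, Dct and Pmel) summed to 77.3, 455 and 1962 CPM in 6 h replicates 1, 2 and 3. The 6 h libraries ranked in this order for 3 of the 10 genes (Tgfbr1, Tgfbr2 and Skil), and for 21.9% of all genes tested. At 0 h PCS these genes summed to 208.6, 63.7 and 51.3 CPM, an order that Skil also followed there, whereas Tgfbr1 and Tgfbr2 did not. The part of pigment cells in the levels of these genes was not tested.

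Smad7 (ENSMUSG00000025880, chromosome 18, 75367365 to 75395935) encodes the inhibitory SMAD that binds the active type I receptor and blocks it. Its libraries were at 44.8, 34.4 and 43.6 CPM at 0 h PCS and close together at 75.3, 69.4 and 75.3 CPM at 6 h PCS. It rose 1.79-fold (log2 fold change 0.84, SE 0.147, edgeR QL adjusted p = 0.00775), under the fold limit. It was called in all 6 fits that each left out 1 library, with log2 fold changes between 0.73 and 0.91, but not with library size scaling (0.52, edgeR QL adjusted p = 0.0506).

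Pmepa1 (ENSMUSG00000038400, chromosome 2, 173224458 to 173276731) encodes a membrane protein that keeps receptor-regulated SMADs from the type I receptor. It was at 43.9, 33.2 and 61.2 CPM at 0 h PCS and at 147.8, 96.0 and 132 CPM at 6 h PCS, with no overlap. Pmepa1 rose 2.72-fold (log2 fold change 1.44, SE 0.240, edgeR QL adjusted p = 0.00714) and was a DEG in all 6 fits that left out 1 library.

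Skil (ENSMUSG00000027660, chromosome 3, 31095058 to 31122923), whose product SnoN represses SMAD-driven transcription, was at 156, 122 and 106 CPM at 0 h PCS and at 171, 198.5 and 285 CPM at 6 h PCS. The groups were separated, by a narrow margin for 6 h replicate 1. The log2 fold change of 0.77 (SE 0.212) had an adjusted p of 0.0553 from the same edgeR test and did not pass, but it was called in 6 of 16 alternatives, among them DESeq2 (adjusted p = 0.0134), the exact test of edgeR (0.0313) and the fit without 6 h replicate 1 (0.0338). Smurf1 (ENSMUSG00000038780, chromosome 5, 144876495 to 144965899), which encodes a ubiquitin ligase that Smad7 brings to the receptors, was at 27.0, 24.7 and 36.2 CPM at 0 h PCS and at 48.5, 42.1 and 37.7 CPM at 6 h PCS. Its groups were separated, but the log2 fold change of 0.55 (SE 0.184, edgeR QL adjusted p = 0.106) did not pass. Of the 4 brake genes, 2 rose by the QL test and 3 by DESeq2 and by the exact test, and all 4 had separated groups.

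Tgfbi (ENSMUSG00000035493, chromosome 13, 56609586 to 56639359) encodes a secreted matrix protein named for its induction by TGFβ. It had the largest fold change of the 10 genes, from 7.18, 9.46 and 19.6 CPM at 0 h PCS to 48.1, 42.7 and 64.2 CPM at 6 h PCS. The 6 h libraries lay close together, whereas 0 h replicate 3 was above the other 0 h libraries. Tgfbi rose 4.27-fold (log2 fold change 2.10, SE 0.372, edgeR QL adjusted p = 0.0135), and passed both limits in 5 of 6 fits with 1 library left out. In the exception, the fit without 6 h replicate 1, the edgeR QL adjusted p was 0.0571 at a log2 fold change of 2.14.

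**Figure D2:**
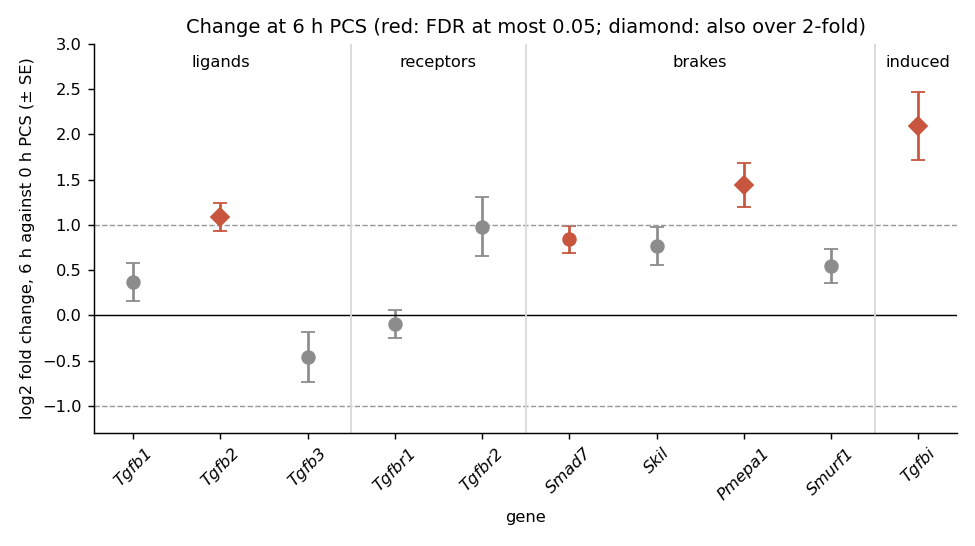
Log2 fold change at 6 h against 0 h PCS (y axis) of the 10 genes in order of role (x axis), with bars for the standard error, red for genes at an FDR of at most 0.05 in edgeR, diamonds for those also over 2-fold and dashed lines at 2-fold. Tgfb2, Pmepa1 and Tgfbi are red diamonds with values of 1.09, 1.44 and 2.10, and Smad7 is a red circle at 0.84.

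Levels of different genes can be compared only per length, and exon lengths were at hand for 7 of the 10 genes (not for Tgfb1, Tgfb3 and Tgfbr1). In fragments per kilobase of exon, scaled to the library total (FPKM), Tgfb2 stood far above the others at 0 h PCS with 91.5 ± 10.3 FPKM (SD, n = 3). Skil followed with 14.7 ± 2.59, Pmepa1 with 10.5 ± 3.45 and Smad7 with 10.1 ± 1.43 FPKM (SD, n = 3), where Pmepa1 overlapped with both of the others while every Skil library was above every Smad7 library. Smurf1 was at 5.18 ± 1.20, Tgfbi at 3.61 ± 2.07 and Tgfbr2 at 1.32 ± 0.371 FPKM (SD, n = 3), where Smurf1 and Tgfbi overlapped. At 6 h PCS the order of means was Tgfb2, Pmepa1, Skil, Smad7, Tgfbi, Smurf1 and Tgfbr2. Pmepa1, at 22.6 ± 2.90 FPKM, was then within the spread of Skil at 20.2 ± 5.60 FPKM, and Tgfbi, at 12.2 ± 2.36 FPKM (SD, n = 3), had moved above Smurf1 at 6.04 ± 0.724 FPKM (SD, n = 3). Tgfbr2 stayed lowest at 2.10 ± 0.922 FPKM (SD, n = 3).

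Ratios between genes of the same library do not depend on how the libraries are scaled, and 6 of them were compared between the times. With 3 libraries against 3, an exact two-sided permutation test cannot give a p below 0.1, which is 0.15 after Benjamini-Hochberg adjustment over the ratios here. The log2 ratio of Tgfb2 to Tgfb3 counts was 4.93, 4.41 and 5.71 in the 0 h libraries and 6.52, 6.51 and 6.49 in the 6 h libraries. The 6 h libraries were nearly identical to each other, and the ratio was higher by 1.49 on the log2 scale (exact permutation p = 0.1, adjusted p = 0.15). The ratio of Tgfb2 to Tgfb1 was higher by 0.72 on the log2 scale, also without overlap (exact permutation p = 0.1, adjusted p = 0.15). Of the read pairs on the 3 ligand genes, Tgfb2 took 89.7%, 90.1% and 91.8% at 0 h PCS and 93.8%, 95.5% and 95.0% at 6 h PCS, a share that also reflects the lengths of the 3 genes (exact permutation p = 0.1).

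The log2 ratio of Tgfbr2 to Tgfbr1 was −2.48, −2.60 and −2.03 at 0 h PCS and −1.74, −1.41 and −0.91 at 6 h PCS. All 6 h libraries were above the 0 h libraries, by 1.02 on the log2 scale (exact permutation p = 0.1, adjusted p = 0.15). Tgfbi gained on Tgfb2 by 1.13 on the log2 scale, and its ratio to Tgfb2 also had separated groups (exact permutation p = 0.1, adjusted p = 0.15). The ratio of Smad7 to Tgfbr2 was 2.10 ± 0.247 at 0 h PCS and 2.03 ± 0.635 at 6 h PCS (SD, n = 3, log2), a difference within the spread (exact permutation p = 1). The ratio of Pmepa1 to Tgfbr2 was 2.24 ± 0.0702 and 2.79 ± 0.763 (SD, n = 3, log2), with overlapping groups (exact permutation p = 0.3, adjusted p = 0.36) and with 6 h replicate 1 far above the other 6 h libraries.

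**Figure D3:**
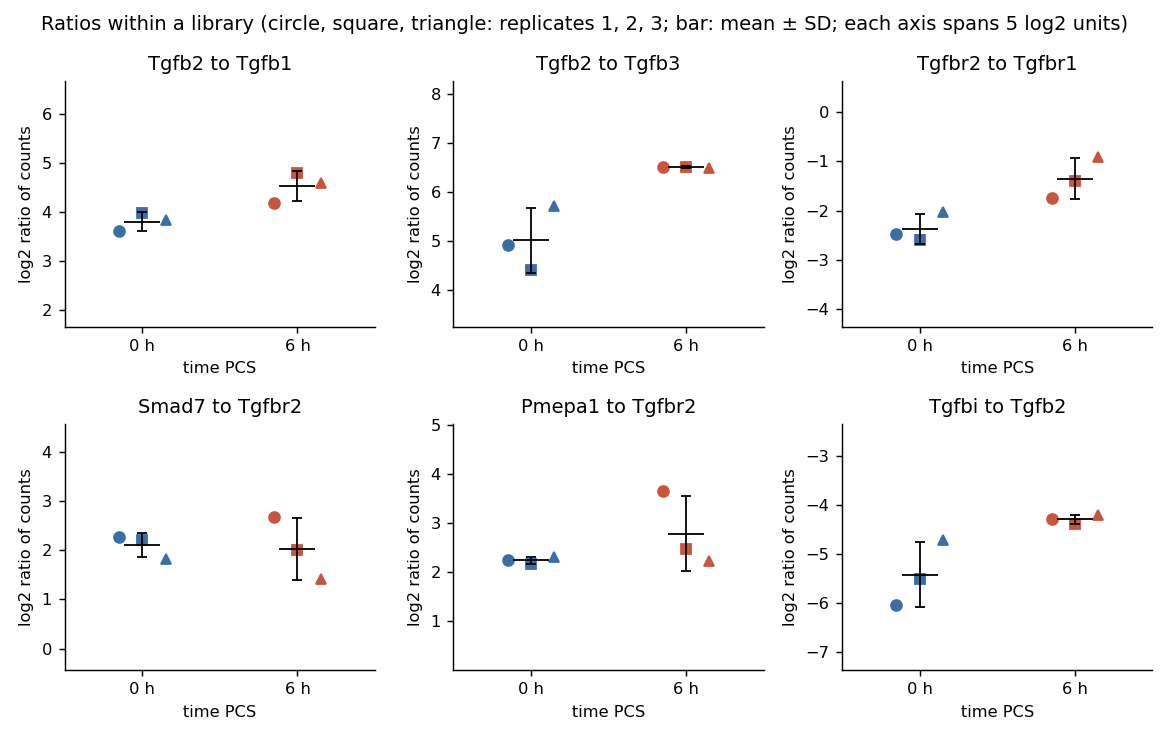
Log2 ratios of the counts of 2 genes within each library (y axes, all with the same span) at 0 h PCS (blue) and 6 h PCS (red), with bars for the mean ± SD. The groups are separated for Tgfb2 to Tgfb1, Tgfb2 to Tgfb3, Tgfbr2 to Tgfbr1 and Tgfbi to Tgfb2, and overlap for Smad7 and Pmepa1 to Tgfbr2.

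The genes whose pattern over the 6 libraries was most like that of Tgfb2 were Jak1, Abl2 and Slc7a1, with root mean square differences of 0.0821, 0.0884 and 0.0995 on the log2 scale after centering each gene on its own mean. For Pmepa1 they were Mir22hg, Mtmr10 and Gpc1 (0.114, 0.135 and 0.140), and for Tgfbi they were Spsb1, Itga7 and Gcnt4 (0.249, 0.253 and 0.283). The search covered 3481 named genes, a set that leans towards genes that changed.

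The other genes of the pathway were taken from 6 lists of 58 genes, of which 36 could be matched to an identifier, and all 36 were tested. Of the 36, 11 rose and 0 fell in edgeR, and without 0 h replicate 1, 2 or 3 the number called was 6, 7 and 7. Over all genes tested, these fits called 618, 987 and 822, beside 1400 with all libraries. DESeq2 called 16 of the 36 and the exact test 13, and 16 were called by the QL test with no low-count filter. Over all genes, DESeq2 called 2182 and the exact test 1810 of 16810, and the QL test with no filter 2303 of 28552. Since the identifiers come from tables that lean towards changed genes, the background for the QL calls is that of tested genes with a name at hand. Of these, 16.2% rose and 5.03% fell by the QL test on all libraries, and the share was not computed for the other fits. At an unadjusted p of at most 0.05, 2 of the 36 (Trim33 and Smad6) were lower at 6 h PCS, and DESeq2 and the exact test called 0 lower. The median log2 fold change was 0.72 over the 36 genes and 0.19 over all tested genes with a name at hand.

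Of 7 matched genes for ligand latency and activation, 2 rose by the QL test, 3 by DESeq2 and 1 by the exact test. Thbs1, whose product thrombospondin can free latent TGFβ, rose from 32.0 ± 10.4 to 370.5 ± 231 CPM (SD, n = 3), with a log2 fold change of 3.54 (SE 0.536, edgeR QL adjusted p = 0.016), but it was not called without 0 h replicate 1 (edgeR QL adjusted p = 0.0575). With 1 library left out, its log2 fold change lay between 2.89 (without 6 h replicate 3) and 3.79. Ltbp1, a latent TGFβ binding protein gene, rose from 129.6 ± 16.9 to 190.6 ± 20.9 CPM (SD, n = 3), with a log2 fold change of 0.56 (SE 0.148, edgeR QL adjusted p = 0.0475), and it was called in 2 of the 6 fits that left out 1 library, those without 0 h replicate 2 and without 6 h replicate 1, with adjusted p-values up to 0.213 in the others. Itgav, the integrin subunit gene with the most counts of this list, was at 264.6 ± 31.3 and 376 ± 51.7 CPM (SD, n = 3) with an adjusted p of 0.0791 from edgeR, and it was called by DESeq2 (adjusted p = 0.0364), without a filter and without 6 h replicate 1 (0.0349). Of 4 matched co-receptors and receptor partners, 1 rose by the QL test and by DESeq2, and 2 by the exact test, which added Acvrl1. The one called by each of these tools was Cd109, a TGFβ co-receptor that dampens signaling, which rose from 1.59, 1.78 and 4.48 CPM to 18.03, 27.8 and 14.6 CPM (log2 fold change 2.95, SE 0.435, edgeR QL adjusted p = 0.00406). Its log2 fold change lay between 2.62 and 3.57 (without 0 h replicate 3) when 1 library was left out. Tgfbr3, the betaglycan gene, was at 74.6 ± 16.0 and 92.8 ± 39.6 CPM (SD, n = 3) and did not pass (edgeR QL adjusted p = 0.584).

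Only 1 of 5 genes for SMAD mediators could be matched, Trim33, at 54.2 ± 1.88 and 39.7 ± 5.27 CPM (SD, n = 3, edgeR QL adjusted p = 0.0934), so Smad2, Smad3 and Smad4 were not analysed here. Of 5 further brakes on SMAD signaling, 2 rose by the QL test and by the exact test, and 3 by DESeq2. Tgif1, a SMAD corepressor gene, rose from 62.4, 32.5 and 44.7 CPM to 135, 106.8 and 152 CPM (log2 fold change 1.496, SE 0.236, edgeR QL adjusted p = 0.00538). Nedd4l, a ubiquitin ligase gene, had a log2 fold change of 0.87 (SE 0.207, edgeR QL adjusted p = 0.0302), and it was not called when any 1 of the 0 h libraries was left out, with adjusted p-values of 0.0940, 0.0964 and 0.0885 from edgeR. Ski, the relative of Skil, was at 96.1 ± 6.84 and 137 ± 19.7 CPM (SD, n = 3, edgeR QL adjusted p = 0.0594), and it was called by DESeq2 (adjusted p = 0.0268), without a filter and without 6 h replicate 2 (0.0443 from edgeR). Smad6, the inhibitory SMAD that acts mainly on BMP signaling, was at 23.6 ± 2.54 and 15.2 ± 3.95 CPM (SD, n = 3), with all 6 h libraries below the 0 h libraries and an adjusted p of 0.105 from edgeR. The inhibitory SMAD genes Smad7 and Smad6 thus had log2 fold changes of 0.84 and −0.64, of which only the first passed, and the difference between them was not tested. With library size scaling the calls changed places, with Smad6 called lower (log2 fold change −0.97, edgeR QL adjusted p = 0.0177) and Smad7 not called (0.0506), and Trim33 was also called lower (0.0163). Smad6 was called lower without 6 h replicate 1 as well (edgeR QL adjusted p = 0.0273).

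Of 11 matched genes known to respond early to TGFβ in other cells, 5 rose by the QL test, 7 by DESeq2 (with Ccn2 and Adam12) and 6 by the exact test (with Adam12), and these genes also respond to other signals. Klf10, a TGFβ-inducible transcription factor gene, rose from 17.1 ± 2.22 to 54.5 ± 18.7 CPM (SD, n = 3), with a log2 fold change of 1.67 (SE 0.249, edgeR QL adjusted p = 0.00379). Klf10, Tgif1 and Cd109 were each called in all 6 fits that left out 1 library. Junb, Cdkn1a, Rhob and Bhlhe40 rose by log2 fold changes of 3.25, 2.57, 1.43 and 0.91. Junb was not called without 6 h replicate 1 or 6 h replicate 3 (edgeR QL adjusted p = 0.0595 and 0.0540), Cdkn1a not without 0 h replicate 1 (0.0508) and Rhob not without 0 h replicate 2 (0.0504). Bhlhe40 was called in 1 of the 6 fits, that without 6 h replicate 2, and its adjusted p reached 0.140 without 0 h replicate 3. Ccn2, the connective tissue growth factor gene, was at 209.5 ± 59.9 and 434 ± 183 CPM (SD, n = 3) with an adjusted p of 0.132 from edgeR, but it was called by DESeq2 (adjusted p = 0.00984) and by edgeR without 6 h replicate 1 (0.0145), and Tsc22d1, with the most counts of this list, was at 656 ± 51.2 and 639 ± 108 CPM (SD, n = 3, edgeR QL adjusted p = 0.913).

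Of the 11 called genes of these lists, 6 (Ltbp1, Thbs1, Klf10, Cdkn1a, Rhob and Tagln) ranked over the 6 h libraries in the order of the pigment cell genes. So did 15 of all 36 genes (41.7%), against 21.9% of all genes tested. The part of pigment cells in the levels of the listed genes was not tested. Of 8 matched matrix and contractile genes that TGFβ raises later, 1 rose by the QL test, and 2 by DESeq2 and by the exact test, which also called Lox, a collagen cross-linking enzyme gene (log2 fold change 3.38, SE 0.890, edgeR QL adjusted p = 0.0826, DESeq2 adjusted p = 0.00553). Lox was called in 0 of the 6 edgeR fits that left out 1 library, with log2 fold changes between 2.58 and 3.76. Tagln, an actin-binding protein gene of contractile cells, rose from 5.46, 3.09 and 3.40 CPM to 21.9, 62.5 and 94.3 CPM (log2 fold change 3.90, SE 0.601, edgeR QL adjusted p = 0.0156) and lost its call when 0 h replicate 2 or 0 h replicate 3 was left out (edgeR QL adjusted p = 0.0560 and 0.0589). Acta2, with the most counts of this list, was at 57.6, 125 and 284 CPM in the 6 h libraries and did not pass (edgeR QL adjusted p = 0.632).

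**Figure D4:**
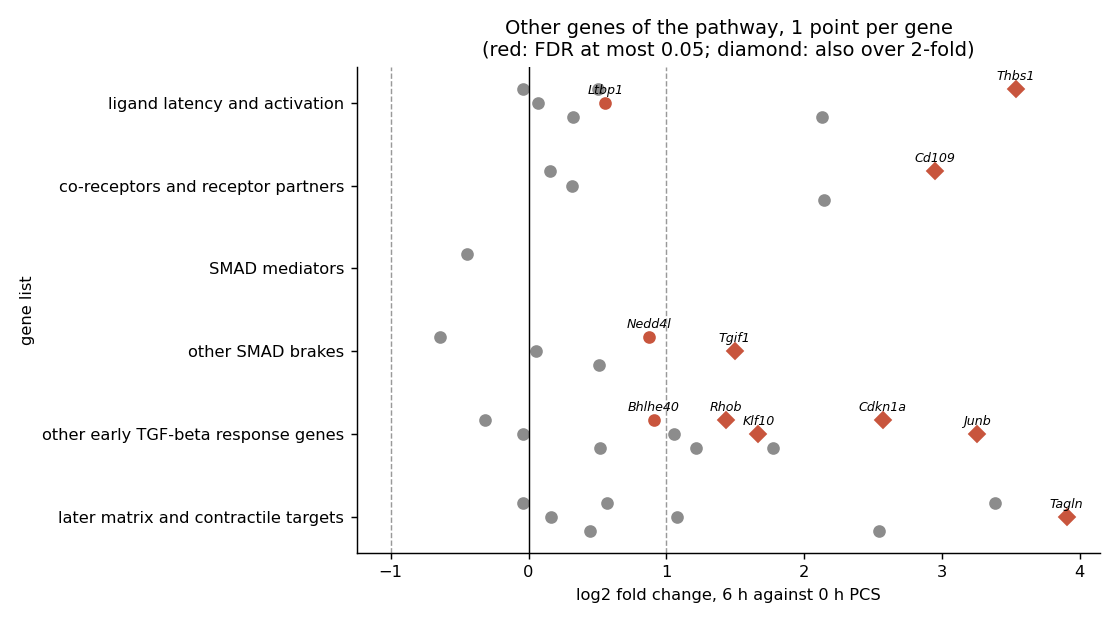
Log2 fold change at 6 h against 0 h PCS (x axis) of the 36 matched genes of 6 other pathway lists (y axis), 1 point per gene, with red for an FDR of at most 0.05 in edgeR, diamonds for those also over 2-fold and dashed lines at 2-fold. The 11 red points all lie right of 0, from Ltbp1 at 0.56 to Tagln at 3.90.

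The libraries held between 18039974 and 24701039 counts on genes, and single genes of the 10 had between 152 counts (Tgfb3 in 6 h replicate 1) and 20011 counts (Tgfb2 in 6 h replicate 2). The lowest total was that of 6 h replicate 1, with 33.6% of read pairs on genes, against 39.5% to 41.2% in the other libraries. Its most counted gene took 23.3% of the counts on genes, against 14.8% to 17.7% in the others. The part of these traits in the results was not tested. The 5 matched lens epithelial markers summed to 1289 to 1513 CPM at 0 h PCS and to 950.0 to 1226 CPM at 6 h PCS. Sox2 and Prox1 fell (log2 fold changes −0.70 and −0.75, edgeR QL adjusted p = 0.0151 and 0.0119), Epha2 rose (1.21, adjusted p = 0.0134), and Pax6 and Foxe3 did not pass. Markers of some other cells differed between the time points or in single libraries, though not all of them passed. The 5 erythrocyte genes summed to 7.93 to 19.5 CPM at 0 h PCS and 73.4 to 133 CPM at 6 h PCS, the 2 matched corneal epithelium genes to 0.764 to 14.7 and 69.0 to 103.98 CPM, and the 3 platelet genes to 4.26 to 5.67 and 8.31 to 36.8 CPM. The sums of the 6 leukocyte genes overlapped, at 13.5 to 22.6 and 16.8 to 32.2 CPM, but Cd68 among them rose 5.84-fold (edgeR QL adjusted p = 0.0129). The sums of the 4 endothelial genes overlapped at 4.09 to 26.2 and 19.9 to 36.9 CPM, while Pecam1 and Cdh5 had separated groups and higher values at 6 h PCS (edgeR QL adjusted p = 0.0644 and 0.0529), and 2 endothelial genes were called by DESeq2 and by the exact test. The 2 stromal genes summed to 185 to 253 and 119 to 143 CPM, but most of this sum was Pdgfra, which LECs are also known to express, and which fell (log2 fold change −0.73, edgeR QL adjusted p = 0.0179). The other stromal gene, Dcn, was at 3.42 to 6.10 CPM at 0 h PCS and 0.404 to 2.65 CPM at 6 h PCS and did not pass (edgeR QL adjusted p = 0.161). None of these markers was at 0 in all libraries, and their part in the levels of the 10 genes was not tested.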

How the data were processed

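The authors mapped paired reads of total RNA with HISAT2 to GRCm38.p6 and deposited raw HTSeq counts (union mode) for each gene, without normalization. Whether HTSeq used strand is not given in the sources used here, so reads of overlapping antisense genes may be included. Rows naming no gene held 58.8% to 66.4% of read pairs and were left out. With 3 libraries per group, edgeR 4.0.16 (R 4.3.3) was run as in the study's methods: TMM factors, filtering by group, robust dispersions and the quasi-likelihood F-test in its earlier form. A gene rose or fell when its Benjamini-Hochberg adjusted p over the 16810 genes tested was at most 0.05, and a DEG also had a fold change above 2. The standard error was the log2 fold change divided by the square root of F. FPKM used total gene counts and the exon lengths of the study's supplementary table. On simulated counts of the 6 h and 0 h comparison (16810 genes, 200 of them changed by 2 on the log2 scale), 134 genes were called, of which 126 were changed ones.

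Identifiers were paired with symbols through the study's supplementary tables (7014 named genes), except that those of Tgfb1, Tgfb3, Tgfbr1 and Tgfbr2 were given with the choice of genes. Coordinates are those of RefSeq on GRCm38.p6. The members and lists were chosen with earlier results of these data known, and 1 gene of the pathway lists is not reported here. Named genes were the 10 genes, every called gene and the gene with the highest mean CPM of each pathway list, and the 3 genes most like Tgfb2, Pmepa1 and Tgfbi in pattern (mean of at least 10 CPM), with cell type markers where a result needed them; Smad6, Ccn2, Lox, Acvrl1 and Adam12 were added after their values were seen. The reads carried no molecular identifiers. The replicates are pools, and p-values measure the spread between pools. The share of Tgfb2 was taken on read pairs, since exon lengths of Tgfb1 and Tgfb3 were not at hand. Alternatives were DESeq2 1.42.0, the exact test, the edgeR 4 method, no robust estimation, library size scaling, DESeq2 size factors, no filter, a replicate block, a test against a fold change of 2, a minimum of 10 counts in all samples, FPKM on TMM sizes, and leaving out each library.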

Additional observations from a re-analysis of the deposited data

How the results depend on the processing

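The direction of the 10 genes held under all 16 alternatives, apart from Tgfbr1, whose log2 fold change lay between −0.21 and 0.011 with 1 library left out and was above 0 only without 6 h replicate 1. In the test against a fold change of 2, none of the 10 genes was called (0 rose, 0 DEGs) and 2 genes of the other pathway lists were. Leaving out 1 library left 4 to 5 genes called, 2 to 3 DEGs, and 6 to 13 calls in the other lists (11 with all libraries), with the fewest without 0 h replicate 1. Calls over all genes tested were also fewest in that fit, at 618 against 1400 with all libraries. With no low-count filter, Tgfbr2 and Skil were also called (adjusted p = 0.00246 and 0.000125 from edgeR). Library size scaling moved the median log2 fold change of all genes to −0.32, with 572 of 1199 DEGs upregulated against 762 of 900, and ended the call of Smad7 (0.52, adjusted p = 0.0506 from edgeR) and the DEG call of Tgfb2 (0.77). Relative to that median they stood at 0.84 and 1.08. Smad6 was gained as a lower call with library size scaling, with no filter and without 6 h replicate 1, and Trim33 with library size scaling. Beside the fits without a library, the test against a fold change of 2 and the replicate block, the calls lost in the other lists, at an FDR over 0.05 in edgeR, were those of Ltbp1, Nedd4l and Bhlhe40 with library size scaling, Ltbp1 in the exact test and without robust estimation, and Tagln with no filter. The difference in the log2 ratio of Smad7 to Tgfbr2 (−0.07) lay between −0.39 and 0.24 with 1 library left out. The cause of these changes was not tested.

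Replicate numbers are shared by the groups, but the correlations of same-numbered pools were −0.0079, 0.283 and 0.156, so they were not taken as pairs. With a replicate block 5 of the 10 genes were called, now with Tgfbr2 (adjusted p = 0.0398 from edgeR), and 11 in the other lists, where Ccn2 and Lox were gained (0.0333 and 0.0486) and Rhob and Tagln lost (0.0605 and 0.0930). The pools of replicates 2 and 3 correlated best with their own number, and those of replicate 1 did not. Exon lengths from an annotation were not run.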
